A study of Drosophila melanogaster with 8 samples.

Results

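First-instar larvae of Drosophila melanogaster that carry deletions of both elav and fne were compared with wild-type Canton-S larvae, gene by gene, in RNA from the dissected central nervous system (CNS). All 17807 genes of the deposited table were considered, and the 10384 that reached at least 1 CPM (a gene's read count divided by the library total and scaled alike for every library) in at least 2 of the 6 libraries were tested. The double mutant, with the genotype elav5/fne, gave 3 libraries and Canton-S gave 3. A further 2 libraries come from larvae with elav5 alone, here called the single mutant, and are quoted as values only, since they would share the Canton-S controls. All animals were live homozygous larvae picked by hand by a visible marker, all were kept under the same conditions, and total RNA of the CNS was used throughout. Per the series' design text both mutations are deletions that remove gene function. The fne allele is not named, and the extent of the deletions, the number of animals per library and any animals that died earlier are not stated in the labels. Canton-S is a separate line from the mutants, so loss of the 2 genes and other differences between the lines cannot be told apart.

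The proteins encoded by elav, fne and Rbp9 form the ELAV/Hu family of the fly. They bind U-rich stretches of RNA and in neurons change splicing and the choice of 3′ ends, so that a transcript keeps neuronal exons or a longer 3′ end. elav has long been used as a marker of postmitotic neurons. The values here count reads over whole genes and do not measure splicing or 3′ ends. What follows covers genes outside the usual lists of synapse, channel and neuropeptide genes, that is, the machinery of gene expression, metabolism, signalling, cell architecture, gene families and gene neighbourhoods.

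The libraries held 32096997, 34846210 and 35693445 reads in genes in the double mutant and 31216373, 33030173 and 38056274 in Canton-S. At that depth a floor of 3 reads is 0.0788 to 0.0961 CPM, by counting error alone. The transcript of elav (FBgn0260400, chromosome X, 509235 to 523226, Release 6 assembly) was at 53.2, 61.0 and 53.7 CPM in the double mutant, against 602, 620 and 599 CPM in Canton-S. fne (FBgn0086675, chromosome X, 12917477 to 12950417) was at 141, 179 and 127 CPM in the double mutant, against 960, 1045 and 1038 CPM in Canton-S. Every library followed its label for both genes. Rbp9, the remaining family member, was at 11.2, 14.7 and 28.8 CPM in the double mutant, against 7.14, 7.90 and 7.67 CPM in Canton-S. The highest of the 3 double mutant values was that of replicate 3, and the log2 change of 1.06 became 0.69 without that library. Without Canton-S replicate 1, 2 or 3 the adjusted p of Rbp9 was 0.0734, 0.0614 and 0.0635.

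Some libraries stood apart. Summed over 51 genes of gut digestion (trypsins, Jonah proteases, amylases, maltases and lysozymes), the level was 56.5, 373 and 1908 CPM in double mutant replicates 1 to 3, against 110, 25.3 and 30.4 CPM in Canton-S. Summed muscle markers came to 7610, 12137 and 25468 CPM in the double mutant, against 5977, 6824 and 5583 CPM in Canton-S. Double mutant replicate 3 was thus the highest library for both tissues, and replicate 2 stood between it and replicate 1. Between pairs of double mutant libraries the root mean square log2 difference was 0.399 for replicates 1 and 2, 0.575 for 2 and 3 and 0.789 for 1 and 3. Pairs of Canton-S libraries differed by 0.335 to 0.363, and pairs across the genotypes by 0.975 to 1.34. Canton-S replicate 2 had 254 CPM of Fbp1 and 85.6 CPM of Lsp1beta, both storage protein genes of the fat body, against at most 1.28 CPM in the other 5 libraries. Nothing in the labels ties replicates to different animals, so p-values below cover just the spread between these samples, which may be technical.

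The labelled tissue was checked against its markers. The 15 neuron markers summed to 12301, 12277 and 10660 CPM in the double mutant, against 21272, 20551 and 21053 CPM in Canton-S, and none was at 0 in any library. The 14 glia markers summed to 6126, 6395 and 5232 CPM in the double mutant, against 6813, 6502 and 6578 CPM in Canton-S. For 12 neuroblast markers the sum came to 2347, 2247 and 1899 CPM in the double mutant, against 886, 933 and 963 CPM in Canton-S. Neuron and neuroblast sums did not overlap between the genotypes, in opposite directions, and the glia sums did not overlap either but lay closer together. In bulk RNA, fewer cells of a type and less RNA per cell cannot be told apart.

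**Figure D1:**
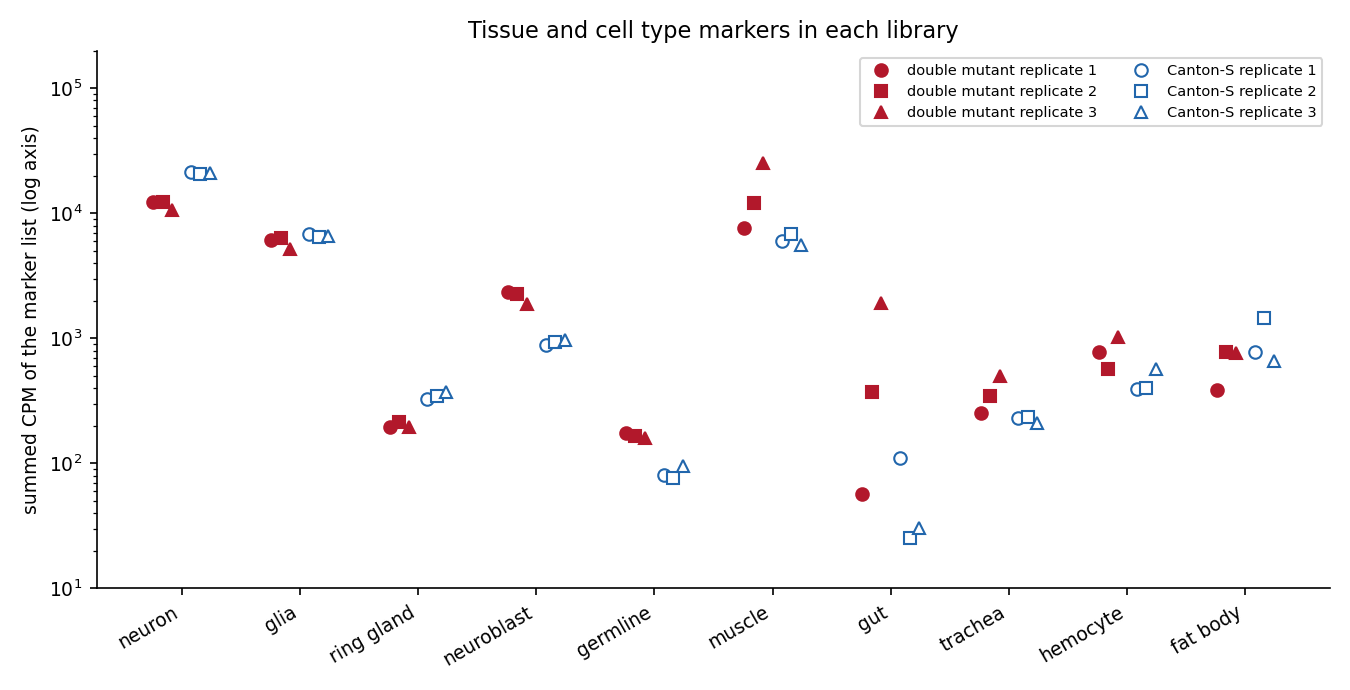
Summed CPM of marker lists for the cell types that a CNS dissection could hold, 1 point per library on a log axis, with double mutant libraries beside Canton-S libraries. Gut and muscle sums spread widely among the double mutant libraries, with replicate 3 at the top (1908 and 25468 CPM), while neuron, neuroblast and ring gland sums fell into separate groups by genotype.

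The change between genotypes ran through most of the transcriptome. A gene is said to have risen or fallen when it passed limma's moderated test on log2(CPM + 1) with a Benjamini-Hochberg adjusted p under the threshold of 0.05. By that rule 3493 genes, 33.6% of those tested, rose in the double mutant, and 2890, 27.8%, fell. At least 2-fold rises numbered 1654 (15.9%) and at least 2-fold falls 662 (6.38%). The values of the genotypes did not overlap for 7276 genes (70.1%), among them 3466 of the 3493 rises and 2878 of the 2890 falls. Lack of overlap is therefore no further support for a gene named below because it passed the test. Large rises outnumbered large falls, with 546 genes up and 152 down at least 4-fold, and 149 up and 40 down at least 8-fold. The split depended on the scaling: after quantile normalization, 2-fold or larger rises numbered 1182 and falls 1113.

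Leaving out double mutant replicate 3, 3497 genes rose (33.7%) and 3023 fell (29.1%). Of the calls made with all 6 libraries, 3307 rises and 2772 falls held without it, while 186 rises and 118 falls were lost. No gene called with and without it changed direction. Of the 6383 genes called, 54.7% were higher in the double mutant, and with values quantile-normalized 2684 rose and 3738 fell, while the median log2 change over all genes was -0.11 instead of 0.07. Between the genotype means, the levels of the genes that rose went up by 189525 CPM in all, and those of the genes that fell decreased by 205412 CPM.

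**Figure D2:**
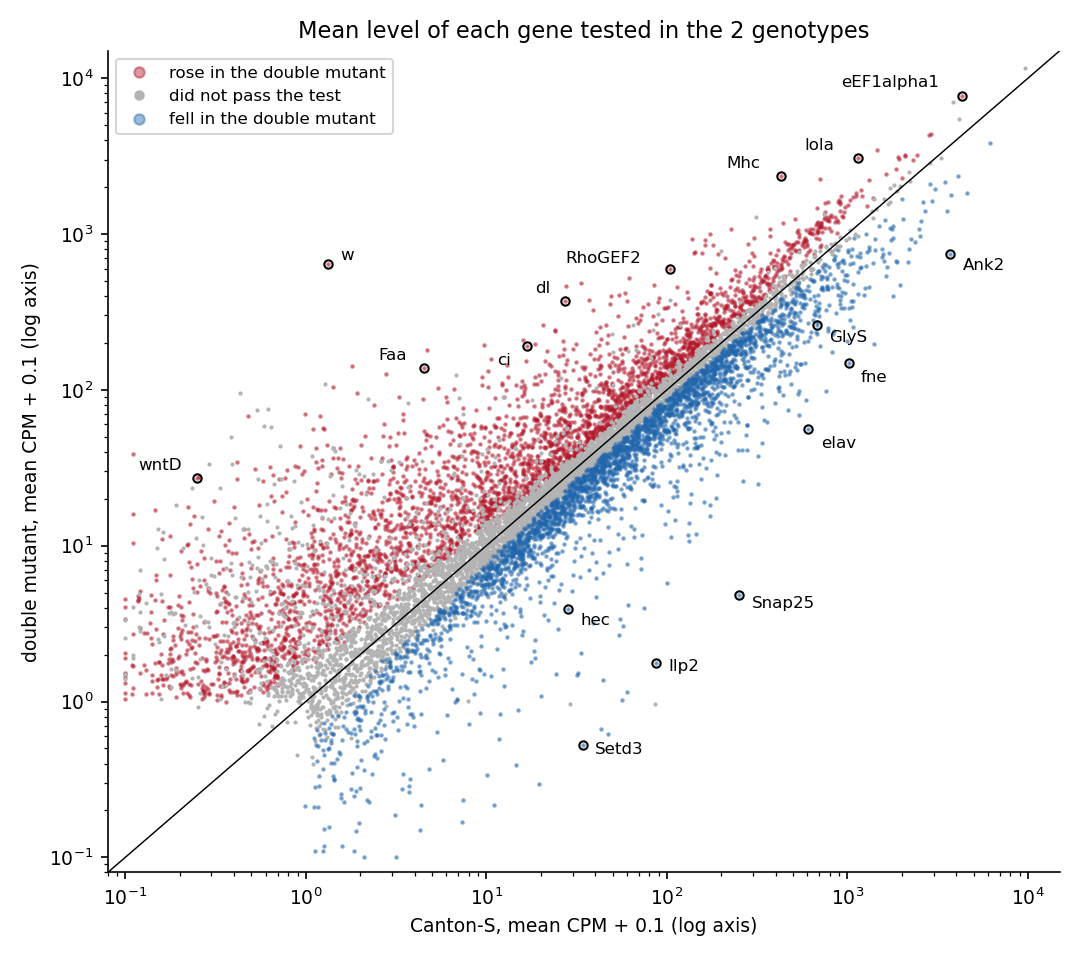
Mean CPM + 0.1 of each of the 10384 tested genes in the double mutant (vertical) against Canton-S (horizontal) on log axes, with genes that rose and genes that fell in separate colours and some named genes circled. Genes far above the diagonal outnumber those far below it, 546 against 152 at 4-fold or more on the deposited CPM scale.

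The largest gain of CPM was that of eEF1alpha1, the elongation factor that brings aminoacyl-tRNA to the ribosome. It was at 7694, 7510 and 7915 CPM in the double mutant, against 4139, 4618 and 4203 CPM in Canton-S. The translocase eEF2, the helicase eIF4A and the poly(A)-binding protein gene pAbp rose by 0.61, 0.61 and 0.71 on the log2 scale. lola, a BTB zinc finger factor of many isoforms, was at 3335, 2987 and 2883 CPM in the double mutant, against 1176, 1140 and 1133 CPM in Canton-S. Oda, ornithine decarboxylase antizyme, a brake on polyamine synthesis, rose by 1.68. The remaining gains of the 10 largest were the chaperone gene Hsc70-4 (0.59), the stress-related RNA lncRNA:Hsromega (0.64), lncRNA:roX1 of dosage compensation (1.26) and Mhc.

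Mhc, muscle myosin heavy chain, was at 616, 1776 and 4643 CPM in double mutant replicates 1 to 3, against 477, 460 and 347 CPM in Canton-S. The genotypes did not overlap, but the double mutant values spread over a wide range, and the change of 2.02 (SE 0.67, adjusted p = 0.035) became 1.30 (adjusted p = 0.033) without replicate 3. Without double mutant replicate 2 the adjusted p was 0.0884, and without Canton-S replicate 1, 2 or 3 it was 0.0798, 0.0826 and 0.102.

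The largest losses of CPM were spread over neuronal and glycolytic transcripts. Ank2, the giant ankyrin of axons, was at 791, 825 and 633 CPM in the double mutant, against 3634, 3844 and 3674 CPM in Canton-S. Gapdh2, Eno and Ald1, which encode glycolytic enzymes, fell by 1.32, 1.33 and 0.79 on the log2 scale. Cam, calmodulin, fell by 1.72, Nckx30C, a sodium/calcium-potassium exchanger, by 2.05, the G protein gamma subunit Ggamma30A by 1.38, 14-3-3zeta by 1.07, Sap47, a synapse-associated protein, by 1.42 and IA-2, a protein of dense-core vesicles, by 0.67. For each of these 10 losses the highest double mutant library was below the lowest Canton-S library.

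Among single genes the largest rise was that of w (FBgn0003996, chromosome X, 2790599 to 2796466), the ABC transporter subunit that carries eye pigment precursors. It was at 700, 635 and 582 CPM in the double mutant, against 2.27, 0.636 and 0.762 CPM in Canton-S, a log2 change of 8.24 (SE 0.26, adjusted p = 4.7e-06). The single mutant libraries had 0.799 and 0.569 CPM. Reads per gene do not tell whether they came from w at this position or from another copy of its sequence. The source of this rise was not tested. Of 19 tested genes of eye pigment transport and synthesis, w included, 4 rose and 5 fell with a median of 0.00, among them falls of Pu, GTP cyclohydrolase (-0.83), and rb, an adaptor complex subunit (-0.38).

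The next largest rises had little in common by known role. Faa, fumarylacetoacetase, the last enzyme of tyrosine breakdown, was at 141, 132 and 142 CPM in the double mutant, against 3.59, 5.42 and 4.26 CPM in Canton-S (log2 change 4.70, SE 0.13, adjusted p = 4e-06). CG15279 was at 114, 108 and 91.2 CPM in the double mutant, against 1.12, 2.06 and 0.788 CPM in Canton-S (log2 change 5.54), and CG9380 at 109, 115 and 156 CPM against 3.59, 2.36 and 2.05 CPM (log2 change 5.12). The genotypes were far apart for all 3 genes and the double mutant libraries close together. wntD, a Wnt-type ligand that in the fly embryo opposes Dorsal, was at 36.3, 25.5 and 19.1 CPM in the double mutant, against 0.224, 0.0908 and 0.131 CPM in Canton-S (log2 change 4.56). CG6293 rose by 4.61. For all 12 largest rises the groups did not overlap, which the rule for naming them required.

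Other large rises differed more between the double mutant libraries. Fst, a gene of the cold response, was at 5.67, 68.9 and 351 CPM in replicates 1 to 3 of the double mutant, against 3.91, 0.848 and 0.368 CPM in Canton-S (log2 change 4.56, SE 1.37, adjusted p = 0.025). Its adjusted p was 0.0725 without double mutant replicate 2, and 0.0753 and 0.0797 without Canton-S replicates 2 and 3. The cuticle protein gene TwdlN was at 28.3, 123 and 389 CPM in the double mutant, against 7.46, 4.54 and 1.76 CPM in Canton-S. Both followed the order of the gut and muscle sums, lowest in replicate 1 and highest in replicate 3; the part of other tissues in these rises was not tested. E(spl)m7-HLH, a Notch target, and GstD2, a glutathione transferase, had the opposite order, with replicate 1 highest (73.7 and 73.9 CPM).

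The deepest falls shared a feature of a library. Among the 40 genes that fell at least 8-fold, double mutant replicate 2 was the highest of the 3 double mutant libraries in 34. Among the 9 that fell at least 16-fold it was the highest in 9, with a median level 3.88 times the mean of the other 2 libraries. Over all 2890 genes that fell it was the highest in 851, with a median ratio of 1.00. Snap25, the SNARE of vesicle fusion, was at 2.09, 9.61 and 2.38 CPM in the double mutant, against 232, 271 and 250 CPM in Canton-S, and its log2 change of -5.71 was -6.28 without replicate 2.

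Several of the deepest falls were not neuropeptides or synaptic genes. Setd3, a methyltransferase gene, was at 0.0935, 1.15 and 0.0280 CPM in the double mutant, against 32.6, 35.2 and 34.2 CPM in Canton-S (log2 change -4.71, and -5.04 without replicate 2). Hs3st-B, which sulfates heparan sulfate, was at 0.467, 1.55 and 0.728 CPM in the double mutant, against 52.3, 51.9 and 65.2 CPM in Canton-S (log2 change -4.94). FoxP, a forkhead factor, was at 0.280, 1.03 and 0.252 CPM in the double mutant, against 48.1, 55.5 and 38.2 CPM in Canton-S. In the single mutant FoxP stood at 26.5 and 35.7 CPM. dpr21, which encodes an immunoglobulin-domain surface protein, fell by 5.02, and CG14431 and CG4678 by 3.99 and 3.92. Setd3 lies within the span of CG14431 on the opposite strand, and use of strand in the counting is not given. Reads of Setd3 and CG14431 may thus be mixed, and their falls may not be separate. The rest of the 12 deepest falls were the peptide hormone genes Ilp2, Pdf, Orcokinin, Eh and Capa, with log2 changes from -5.08 to -3.97.

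Genes that make and handle RNA and protein did not move as a block. Translation factors rose more often than they fell, while most genes of splicing, ribosome assembly, nuclear transport and the mitochondrial ribosome fell. These lists, and all others below, are described by how many of their tested members passed the test in each direction, to be read against the 33.6% of all genes that rose and the 27.8% that fell, and by the median log2 change of all tested members, which for all genes was 0.07.

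Of 34 translation factors 20 rose and 4 fell (median 0.30), and 17 rose and 5 fell after TMM scaling and by edgeR. eIF3f1, a subunit of the initiation complex that recruits the small ribosomal subunit, was at 216, 201 and 193 CPM in the double mutant, against 110, 114 and 114 CPM in Canton-S (log2 change 0.84, SE 0.06). Its partners eIF3h and eIF3c rose by 0.79 and 0.67. The genotypes did not overlap for these 3 genes, which holds for nearly all called genes.

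Of 23 core spliceosome genes 2 rose and 18 fell (median -0.52). Prp8, the scaffold at the catalytic centre of the spliceosome, was at 140, 140 and 176 CPM in the double mutant, against 280, 313 and 249 CPM in Canton-S (log2 change -0.88, SE 0.12, adjusted p = 0.00098). snf, shared by the U1 and U2 particles, was at 36.9, 33.9 and 34.5 CPM in the double mutant, against 51.6, 61.2 and 55.9 CPM in Canton-S. Canton-S replicate 2 was the highest library for both. SF1, which recognises the branch point, fell by 0.83, and Prp19, of the activating complex, fell by 0.82.

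Of 25 genes of nucleolar ribosome assembly 2 rose and 16 fell (median -0.44). The exceptions were Non1, a nucleolar GTPase, at 1531, 1393 and 1483 CPM in the double mutant, against 676, 621 and 739 CPM in Canton-S, and Ns2, a nucleostemin-type GTPase, which rose by 0.48. Nnp-1 was at 45.6, 37.9 and 39.3 CPM in the double mutant, against 82.1, 88.5 and 63.0 CPM in Canton-S. The number that fell depended on single libraries, with 7 without double mutant replicate 2, 7 without Canton-S replicate 1 and 8 without Canton-S replicate 2.

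Of 27 nuclear transport genes 2 rose and 16 fell (median -0.33), and 10 fell without double mutant replicate 2. The nucleoporin genes Nup133 and Nup50 fell by 0.96 and 0.78 and the importin gene Fs(2)Ket by 0.56, while sbr, the mRNA export receptor, rose by 0.46. Chromatin genes of the Polycomb and Trithorax groups and of remodelling split, with 6 of 35 higher and 13 lower. The count of falls was 7 without double mutant replicate 2, 8 without Canton-S replicate 1 and 7 without Canton-S replicate 2, and the count of rises was 3 without double mutant replicate 2. Of 15 insulator and core promoter factors 5 rose and 1 fell, led by su(Hw), at 93.0, 86.1 and 82.6 CPM in the double mutant, against 43.4, 40.7 and 40.9 CPM in Canton-S. The share that rose, 33.3%, was near that of all genes. The falls depended on the scaling, with 4 rises and 4 falls after TMM scaling, by edgeR and by DESeq2. After quantile normalization 5 rose and 4 fell.

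Genes of mRNA decay also split, with 13 of 26 higher and 6 lower. The decapping activator Edc3 was at 441, 405 and 383 CPM in the double mutant, against 154, 168 and 199 CPM in Canton-S (log2 change 1.24). Its partner in decapping Ge-1 was at 42.6, 41.3 and 52.4 CPM in the double mutant, against 105, 119 and 91.3 CPM in Canton-S (log2 change -1.19, SE 0.13, adjusted p = 0.00033). The 2 changes were opposite in sign.

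**Figure D3:**
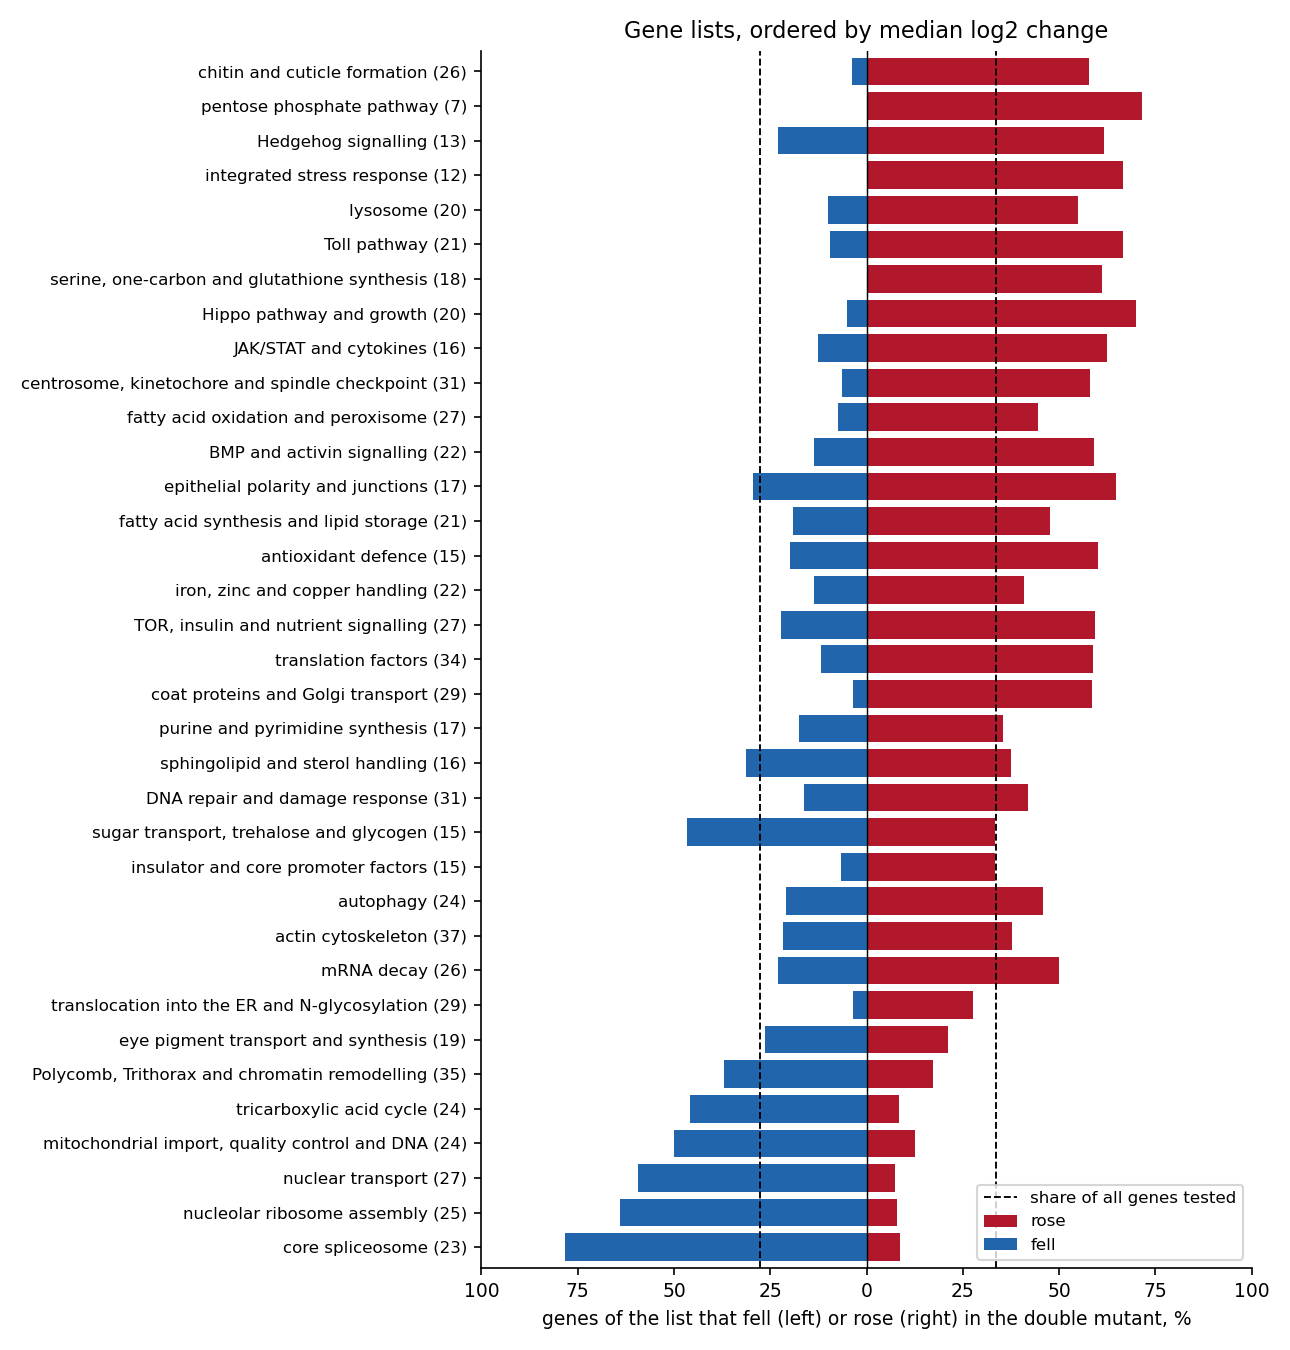
Share of the tested genes of each list (number in brackets) that rose, to the right, or fell, to the left, in the double mutant against Canton-S, in percent, with lists ordered by median log2 change and dashed lines at the shares of all genes tested (33.6% and 27.8%). Chitin and cuticle formation (median 1.48) and the pentose phosphate pathway (1.03) lie at the high end, core spliceosome (-0.52) and nucleolar ribosome assembly (-0.44) at the low end.

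Metabolic genes shifted in several directions. Among their called genes, the lists of the pentose phosphate pathway, of serine, one-carbon and glutathione synthesis and of fatty acid oxidation held more rises than falls, and those of sugar transport, trehalose and glycogen and of the tricarboxylic acid cycle more falls than rises.

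Of 7 pentose phosphate genes, whose pathway makes NADPH and ribose, 5 rose and none fell (median 1.03). Pgd, phosphogluconate dehydrogenase, was at 53.8, 61.6 and 65.1 CPM in the double mutant, against 17.0, 17.8 and 13.2 CPM in Canton-S (log2 change 1.85, SE 0.13, adjusted p = 5.1e-05). Zw, glucose-6-phosphate dehydrogenase, was at 9.32, 11.8 and 16.5 CPM in the double mutant, against 2.79, 1.18 and 1.08 CPM in Canton-S (log2 change 2.36). Taldo, transaldolase, rose by 1.03. For all 5 genes that rose, replicate 3 was the highest double mutant library.

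Idh, the NADP-dependent isocitrate dehydrogenase, was at 412, 497 and 511 CPM in the double mutant, against 88.4, 87.3 and 76.9 CPM in Canton-S (log2 change 2.47, SE 0.10, adjusted p = 8.2e-06). It was 1 of 2 rises among 24 genes listed for the tricarboxylic acid cycle, of which 11 fell (median -0.20, and 16 falls with a median of -0.34 without replicate 3). Idh3b, a subunit of the NAD-dependent enzyme, was at 81.9, 83.8 and 99.6 CPM in the double mutant, against 160, 166 and 163 CPM in Canton-S (log2 change -0.88). SdhD, a membrane anchor of succinate dehydrogenase, fell by 0.70, and Scsalpha1, of succinyl-CoA synthetase, by 0.51.

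Of 17 genes of purine and pyrimidine synthesis 6 rose and 3 fell (median 0.25). The 4 with the smallest p were all purine enzymes, and all rose. Pfas was at 148, 145 and 161 CPM in the double mutant, against 51.0, 51.6 and 46.5 CPM in Canton-S (log2 change 1.59), and Paics rose by 1.70. Prat2, 1 of 2 genes for the first committed step, was at 9.38, 20.4 and 27.7 CPM in the double mutant, against 0.513, 0.636 and 0.552 CPM in Canton-S (log2 change 3.56), while its paralog Prat rose by 0.98.

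Of 18 genes of serine, one-carbon and glutathione synthesis 11 rose and none fell (median 0.67), and 7 rose without any 1 of the Canton-S libraries. CG6287, listed for serine synthesis, averaged 39.8 ± 1.77 CPM in the double mutant and 8.64 ± 3.57 CPM in Canton-S (SD, n = 3 each, log2 change 2.16). Nmdmc, a mitochondrial folate enzyme, was at 63.7, 58.1 and 58.7 CPM in the double mutant, against 36.3, 38.8 and 36.0 CPM in Canton-S (log2 change 0.68). Eip55E rose by 1.39.

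Of 15 genes of sugar transport, trehalose and glycogen 5 rose and 7 fell, and replicate 3 was the highest double mutant library in all 5 rises. Glycogen synthase, GlyS, was at 234, 272 and 270 CPM in the double mutant, against 660, 677 and 701 CPM in Canton-S (log2 change -1.39, SE 0.07, adjusted p = 1.5e-05). Glycogen phosphorylase, GlyP, which breaks the polymer down, was at 1454, 1726 and 1702 CPM in the double mutant, against 2947, 2939 and 2938 CPM in Canton-S (log2 change -0.86). Pgm1, phosphoglucomutase, and UGP, which makes UDP-glucose, fell by 1.30 and 0.68. Genes for making and for using glycogen were thus lower together.

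Of 27 genes of fatty acid oxidation and the peroxisome 12 rose and 2 fell (median 0.52), with replicate 3 the highest double mutant library in all 12 rises. Hnf4, a nuclear receptor of lipid catabolism, was at 54.5, 58.0 and 66.2 CPM in the double mutant, against 16.2, 17.3 and 22.6 CPM in Canton-S (log2 change 1.63, and 1.55 without replicate 3). The carnitine transferase gene CPT2 rose by 1.57 and wal, which passes electrons from acyl-CoA dehydrogenases, by 1.16. Of 21 genes of fatty acid synthesis and lipid storage 10 rose and 4 fell, with rises of the acyltransferase gene mino (1.13), of the lipid droplet protein Lsd-2 (0.96) and of the desaturase Desat1 (0.67). Of 16 genes of sphingolipid and sterol handling 6 rose and 5 fell, including a fall of Npc1a, the lysosomal sterol exporter (-0.71).

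Of 20 lysosome genes 11 rose and 2 fell (median 0.74). Mitf, a transcription factor of lysosomal genes, was at 99.9, 85.9 and 98.3 CPM in the double mutant, against 30.9, 33.1 and 31.3 CPM in Canton-S (log2 change 1.54), and the cathepsin genes CtsB1 and Cp1 rose by 1.07 and 0.89. Of 24 autophagy genes 11 rose and 5 fell, with rises of Atg18a (0.83) and of the cargo receptor gene ref(2)P (0.63) and a fall of bchs (-0.48). The count of autophagy falls was 3 without double mutant replicate 2 and 3 without Canton-S replicate 1 or 3.

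Genes of metal and redox handling rose more than they fell. Of 22 genes of iron, zinc and copper 9 rose and 3 fell, led by the ferritin chains. Fer1HCH was at 1287, 1140 and 1088 CPM in the double mutant, against 414, 420 and 485 CPM in Canton-S (log2 change 1.41), and Fer2LCH rose by 1.34. Of 15 antioxidant genes 9 rose and 3 fell, including catalase (Cat, 1.60) and the glutathione peroxidase gene PHGPx (1.28). Prx2540-2, a peroxiredoxin, was at 48.9, 33.1 and 69.4 CPM in the double mutant, against 0.448, 1.39 and 4.20 CPM in Canton-S. Reads of its near-identical copies may be shared, so its value is uncertain.

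Of 24 genes of mitochondrial import, quality control and mitochondrial DNA 3 rose and 12 fell (median -0.30). Drp1, the fission dynamin, was at 93.4, 93.8 and 88.8 CPM in the double mutant, against 162, 168 and 180 CPM in Canton-S (log2 change -0.88, SE 0.06). Tom40 and Tom70, of the import pore and its receptor, fell by 0.77 and 0.76, and the fusion dynamin Opa1 by 0.59.

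In several signalling pathways of patterning and growth, some ligands, receptors, nuclear effectors and inhibitors rose, while other members fell. The members named were picked by smallest p or, for hh, dpp, wit, Dif, cact and Socs36E, after their values were seen. They do not stand for every layer of a pathway.

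In Hedgehog signalling, in which the ligand binds Patched and so frees Smoothened to act on the factor Cubitus interruptus, 8 of 13 genes rose and 3 fell (median 0.82). The ligand gene hh was at 3.40, 4.05 and 4.43 CPM in the double mutant, against 0.609, 0.939 and 0.473 CPM in Canton-S (log2 change 1.57). The receptor gene ptc was at 111, 109 and 103 CPM in the double mutant, against 9.99, 10.6 and 7.49 CPM in Canton-S (log2 change 3.40, SE 0.13). ci, the nuclear effector, was at 183, 188 and 203 CPM in the double mutant, against 18.2, 17.8 and 13.7 CPM in Canton-S (log2 change 3.46, SE 0.12, adjusted p = 5.1e-06). hh stayed low in both genotypes. The co-receptor gene ihog rose by 1.58, and Pka-C1, the kinase that promotes processing of Ci to its repressor form, fell by 0.71.

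Among 22 genes of BMP and activin signalling 13 rose and 3 fell (median 0.51). The BMP ligand gene gbb was at 109, 103 and 95.8 CPM in the double mutant, against 16.0, 16.6 and 15.9 CPM in Canton-S (log2 change 2.59, SE 0.07, adjusted p = 4e-06). dpp, the other BMP ligand of note, was at 56.5, 53.8 and 52.7 CPM in the double mutant, against 18.1, 15.2 and 14.4 CPM in Canton-S (log2 change 1.72). The ligand genes mav and myo rose by 3.25 and 1.77. All 4 of these ligands rose, though none was picked without regard to its values. brk, a repressor of dpp target genes, was at 112, 104 and 85.0 CPM in the double mutant, against 6.89, 6.39 and 6.28 CPM in Canton-S (log2 change 3.75), while wit, the type II receptor used at the motor neuron synapse, was at 66.5, 67.2 and 63.3 CPM in the double mutant, against 123, 127 and 138 CPM in Canton-S (log2 change -0.97).

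In the Toll pathway 14 of 21 genes rose and 2 fell (median 0.69). dl, the NF-kappaB factor Dorsal, was at 423, 344 and 342 CPM in the double mutant, against 22.4, 29.9 and 28.7 CPM in Canton-S (log2 change 3.73, SE 0.13, adjusted p = 6.7e-06). Its relative Dif was at 238, 204 and 201 CPM in the double mutant, against 128, 123 and 118 CPM in Canton-S (log2 change 0.80). cact, the inhibitor that holds both factors in the cytoplasm, rose by 0.53. Of the receptors of the Toll family, 18w and Tollo rose by 2.76 and 3.40, and the adaptor gene Myd88 rose by 1.58.

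In JAK/STAT signalling 10 of 16 genes rose and 2 fell (median 0.57). The cytokine gene upd2 was at 7.85, 3.99 and 4.40 CPM in the double mutant, against 0.128, 0.272 and 0.0788 CPM in Canton-S, and upd3 was at 4.08, 2.58 and 2.72 CPM against 0.0641, 0.272 and 0.184 CPM. Both cytokines were near the detection floor in Canton-S, and replicate 1 was the highest double mutant library. Their receptor gene dome rose by 0.86, the pathway inhibitor Socs36E by 0.67 and vir-1, a virus-induced gene, by 1.23.

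Of 20 genes of the Hippo pathway and growth control 14 rose and 1 fell (median 0.60). sd, the DNA-binding partner of the growth-promoting coactivator Yorkie, was at 426, 402 and 396 CPM in the double mutant, against 198, 201 and 211 CPM in Canton-S (log2 change 1.00, SE 0.06). ex, an upstream member that restrains growth, was at 72.9, 71.4 and 99.7 CPM in the double mutant, against 23.5, 18.2 and 19.3 CPM in Canton-S (log2 change 1.94), and the adaptor gene sav rose by 1.38. Members that promote and that restrain growth therefore rose side by side. vn, an EGF receptor ligand placed on the list, rose by 1.17.

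Of 27 genes of TOR, insulin and nutrient signalling 16 rose and 6 fell (median 0.32). The count depended on the scaling, with 11 rises and 7 falls after TMM scaling and by edgeR, and 15 and 6 after quantile normalization. S6k, the ribosomal protein kinase downstream of TOR, was at 324, 299 and 294 CPM in the double mutant, against 153, 149 and 145 CPM in Canton-S (log2 change 1.03). The amino acid transporter genes moved in opposite directions. slif averaged 15.6 ± 3.45 CPM in the double mutant and 2.87 ± 0.376 CPM in Canton-S (SD, n = 3 each, log2 change 2.09), and path was at 101, 80.2 and 72.8 CPM against 244, 246 and 214 CPM (log2 change -1.47).

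In the integrated stress response, which slows translation and turns on recovery genes, 8 of 12 genes rose and none fell (median 0.76). crc, the fly ATF4 factor, was at 251, 227 and 230 CPM in the double mutant, against 124, 132 and 135 CPM in Canton-S (log2 change 0.85, SE 0.06). Xrp1, a bZIP factor of cell competition and stress, was at 911, 744 and 937 CPM in the double mutant, against 215, 296 and 338 CPM in Canton-S (log2 change 1.62), and its partner Irbp18 rose by 0.96.

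Some genes that build polarity, the actin cytoskeleton and the division apparatus rose with small standard errors, which naming members by smallest p favours. baz, the Par-3 scaffold of apical polarity and of neuroblast division, was at 212, 199 and 204 CPM in the double mutant, against 26.7, 26.7 and 26.1 CPM in Canton-S (log2 change 2.90, SE 0.06, adjusted p = 2.2e-06). l(2)gl, which acts on the basal side, was at 892, 838 and 810 CPM in the double mutant, against 148, 160 and 179 CPM in Canton-S (log2 change 2.38). aPKC, the kinase that works with Baz and phosphorylates L(2)gl, was at 149, 159 and 149 CPM in the double mutant, against 444, 406 and 425 CPM in Canton-S (log2 change -1.47). The kinase and its partners moved in opposite directions. shg, E-cadherin, rose by 1.62. Of 17 genes of epithelial polarity and junctions 11 rose and 5 fell (median 0.48).

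Of 37 actin genes 14 rose and 8 fell (median 0.15). RhoGEF2, which activates Rho1, was at 597, 590 and 600 CPM in the double mutant, against 103, 101 and 108 CPM in Canton-S (log2 change 2.51, SE 0.05, adjusted p = 2.2e-06). cher, filamin, was at 728, 670 and 873 CPM in the double mutant, against 132, 132 and 157 CPM in Canton-S (log2 change 2.42). sqh, the regulatory light chain of non-muscle myosin, rose by 1.14.

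Of 31 genes of the centrosome, kinetochore and spindle checkpoint 18 rose and 2 fell (median 0.57). ana1, a centriole protein, was at 108, 111 and 120 CPM in the double mutant, against 47.5, 41.5 and 49.0 CPM in Canton-S (log2 change 1.28). The centriole gene Sas-6 rose by 1.79 and the kinetochore genes Cenp-C and Ndc80 by 1.46 and 1.32. Of 31 genes of DNA repair and the damage response 13 rose and 5 fell (median 0.24, and -0.10 after quantile normalization), and the falls numbered 2 without double mutant replicate 2, 8 without replicate 3, and 2 and 3 without Canton-S replicates 1 and 2. lok, the checkpoint kinase Chk2, was at 65.6, 62.3 and 64.5 CPM in the double mutant, against 18.2, 18.5 and 20.2 CPM in Canton-S (log2 change 1.70, SE 0.07). mre11, of the complex that processes broken ends, rose by 1.27. Beside these lists, the 12 neuroblast markers had 11 rises, and the part of dividing cells in these counts was not tested.

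In the secretory pathway, 17 of 29 genes of coat proteins and Golgi transport rose and 1 fell, by a small median of 0.28. Sec23, a coat protein of vesicles leaving the endoplasmic reticulum (ER), was at 204, 202 and 188 CPM in the double mutant, against 129, 130 and 133 CPM in Canton-S (log2 change 0.59, SE 0.05), and deltaCOP and Rab1 rose by 0.70 and 0.67. Of 29 genes of translocation into the ER and N-glycosylation 8 rose and 1 fell, a share below the background. That count was 4 without double mutant replicate 1 or Canton-S replicate 1, and 5 without double mutant replicate 2 or Canton-S replicate 3, and the median of 0.07 was -0.03 after quantile normalization.

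Of 26 genes of chitin and cuticle formation 15 rose and 1 fell (median 1.48, and 0.93 with 19 rises without double mutant replicate 3). Replicate 3 was the highest double mutant library in 14 of the 15 rises, and 9 rose without Canton-S replicate 3. The 4 with the smallest p were chitinase-like Idgf genes, which encode secreted growth factors rather than cuticle proteins. Idgf3 averaged 192 ± 10.7 CPM in the double mutant and 67.0 ± 4.48 CPM in Canton-S (SD, n = 3 each, log2 change 1.51), and Idgf2, Idgf4 and Idgf1 rose by 2.01, 0.83 and 2.78.

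Families of related genes, grouped by shared symbol, moved as blocks in some cases. Cytoplasmic and mitochondrial ribosomal proteins moved in opposite directions. All 46 tested RpL genes rose (median 0.70). Of 35 RpS genes 33 rose and 1 fell (median 0.66). The exceptions were RpS19b, at 0.343, 0.316 and 0.728 CPM in the double mutant, against 1.28, 1.33 and 0.920 CPM in Canton-S, and RpS5b, at 15.7, 15.8 and 14.5 CPM against 18.2, 11.4 and 16.7 CPM (adjusted p = 0.93). The call of RpS19b was lost without double mutant replicate 1 or 2 (adjusted p = 0.0643 and 0.0928) and without Canton-S replicate 1 or 2 (adjusted p = 0.0833 and 0.0796). Each gene belongs to a pair of paralogs with a more abundant member.

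Of 46 mRpL genes, for the large subunit of the mitochondrial ribosome, none rose and 38 fell (median -0.68), and of 26 mRpS genes none rose and 22 fell (median -0.61). mRpS30 was at 25.7, 26.8 and 31.9 CPM in the double mutant, against 63.1, 62.9 and 51.4 CPM in Canton-S (log2 change -1.05, SE 0.12, adjusted p = 0.00042). mRpL17 was at 14.1, 13.9 and 14.2 CPM in the double mutant, against 26.3, 25.9 and 28.0 CPM in Canton-S (log2 change -0.88). The medians of the cytoplasmic families stayed above 0 and those of the mitochondrial families below 0 under 3 other scalings, in edgeR and with each library left out in turn.

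Of 16 ND genes of respiratory complex I 1 rose and 10 fell (median -0.30), of 11 ND-B genes none rose and 8 fell (median -0.34), and of 8 COX genes of complex IV none rose and 7 fell (median -0.39). The ND count was 6 without double mutant replicate 2. Of 21 Nup genes 14 fell (median -0.56), of 14 Rpn genes of the proteasome lid and base 8 fell and 2 rose (median -0.30), and of 21 dpr genes 15 fell (median -0.63).

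Families of detoxification and defence rose further. Of 9 GstD genes 8 rose and 1 fell (median 2.15), and of 14 GstE genes 11 rose and 1 fell (median 1.60). GstE1 was at 177, 135 and 164 CPM in the double mutant, against 6.79, 10.7 and 13.8 CPM in Canton-S (log2 change 3.84, SE 0.24). Of 9 alpha-Est carboxylesterase genes 8 rose and 1 fell (median 1.67, and 5 rises without Canton-S replicate 3). alpha-Est10 was at 42.8, 44.6 and 42.3 CPM in the double mutant, against 3.52, 3.42 and 1.37 CPM in Canton-S (log2 change 3.61). Its value barely varied among the double mutant libraries, although replicate 3 was the highest of them for 7 of the 8 rises in that family.

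Of 17 Spn genes, serine protease inhibitors, 12 rose and 1 fell (median 1.03), with replicate 3 the highest double mutant library in all 12. Of 70 Cpr cuticle protein genes 24 were tested. Of these 20 rose and none fell (median 1.35), and 13 rose without double mutant replicate 2. Members near 0 in Canton-S were tested only if they reached the filter in the double mutant, which leans such counts and medians towards rises. Of 14 Nepl genes of neprilysin-like proteases 9 rose and 1 fell (median 0.74). The 8 tested of 16 Jon genes, gut proteases, had a median of 2.02 with all libraries, and none passed the test. Without double mutant replicate 3 the median was 0.72 and 1 gene rose, and without double mutant replicate 1 it was 3.25 and 3 genes rose.

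**Figure D4:**
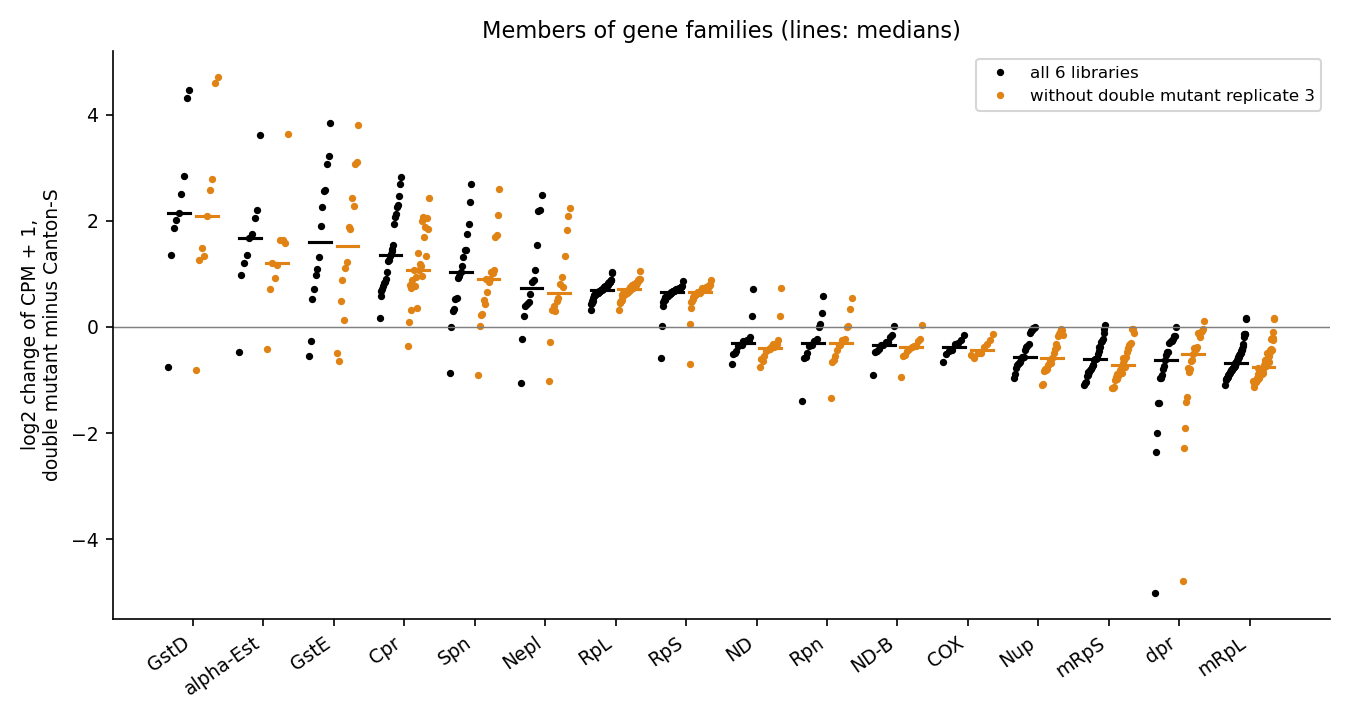
Log2 change of CPM + 1, double mutant minus Canton-S, of each tested member of 16 gene families, 1 point per gene with the family median as a line, from all 6 libraries in black and without double mutant replicate 3 in orange. RpL and RpS genes cluster tightly near 0.70 and 0.66, mRpL and mRpS genes near -0.68 and -0.61, and GstD, GstE, alpha-Est and Cpr genes spread widely, mostly above 0.

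Of 118 small nucleolar RNA genes 56 rose and 7 fell (median 0.33). Most, 107, lie within another gene on the same strand, and 50 of those rose. After quantile normalization 20 rose and 18 fell with a median of -0.07, so the direction of this class depended on the scaling. Of their 50 tested host genes 26 rose and 11 fell (median 0.29). Short RNAs and their hosts share sequence, and how reads were divided between them is not given in the sources used here.

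Neighbouring genes rose together at several places. In the order of gene starts along a chromosome, 16 runs of at least 5 tested genes all rose at least 2-fold, holding 97 genes, and no such run of falls was found. Of all genes tested 15.9% rose and 6.38% fell by that much, so runs of falls were less likely from the start. Runs were sought under the deposited scaling alone, on which the split of rises and falls depends. In the longest run all genes but IM1 and Idgf5 were under 1 CPM in every Canton-S library. So were CG43182, ac, lncRNA:CR44753 and sc of the run at the achaete-scute complex, and members of other runs such as BobA and CG13465. All of these passed the filter through the double mutant alone, so in a run they could count as rises but not as 2-fold falls. All coordinates are of the Release 6 assembly.

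The longest run (chromosome 2R, 18382704 to 18395282, 8 genes) holds the immune-induced peptide genes IM23, IM1, IM2 and IM3 with CG15067, CG15065, CG15068 and Idgf5. IM3 was at 7.35, 37.3 and 34.9 CPM in the double mutant, against 0.160, 0.787 and 0 CPM in Canton-S (log2 change 4.14). Replicate 1 was well below the other double mutant libraries, and 7 of the 8 genes held without replicate 3, with IM1 lost (adjusted p = 0.0505). Calls in this run were close to the threshold: IM1, IM23 and Idgf5 were lost without double mutant replicate 2 (adjusted p = 0.0732, 0.0718 and 0.0655). IM1, IM23, Idgf5, CG15067 and CG15068 were lost without Canton-S replicate 3 (adjusted p = 0.0796, 0.0624, 0.0642, 0.0522 and 0.0635). Without Canton-S replicate 1 those of IM1, IM23, CG15067 and CG15068 were lost (adjusted p = 0.0819, 0.0620, 0.0540 and 0.0676), and without Canton-S replicate 2 that of Idgf5 (adjusted p = 0.0610). IM1 also failed the test by edgeR (adjusted p = 0.0889) and by DESeq2 (adjusted p = 0.187). A run of equal length (chromosome 3R, 12364776 to 12379255) consists of GstD genes alone. GstD1 was at 196, 130 and 179 CPM in the double mutant, against 35.8, 47.0 and 29.1 CPM in Canton-S, and GstD5 at 53.2, 23.7 and 19.3 CPM against 0.288, 0.424 and 0.893 CPM. Reads shared between such close paralogs make single values of this run uncertain.

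The next run (chromosome 3R, 26016514 to 26041008, 7 genes) is part of the Enhancer of split complex, whose HLH and Bearded-family genes are targets of Notch, and had a median change of 3.67. E(spl)m8-HLH was at 83.9, 59.9 and 36.6 CPM in the double mutant, against 2.79, 2.33 and 2.71 CPM in Canton-S (log2 change 4.01). E(spl)m2-BFM was at 34.4, 27.4 and 17.7 CPM in the double mutant, against 0.481, 0.666 and 0.683 CPM in Canton-S (log2 change 4.05). Both were highest in replicate 1 and lowest in replicate 3, the reverse of the gut and muscle sums. A second group of Bearded-family genes, Tom, Brd, Ocho and BobA (chromosome 3L, 14943730 to 14977631), also formed a run. Tom was at 71.3, 67.5 and 55.7 CPM in the double mutant, against 5.70, 6.81 and 5.44 CPM in Canton-S (log2 change 3.23), and Brd and Ocho rose by 3.15 and 2.57. With 6 genes, that run ties in length with the last of the 6 runs named by rule, which take the shorter span first among ties, and it was picked after its values were seen.

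On chromosome X (316576 to 470726) a run of 7 genes spans the achaete-scute complex, with y, ac, sc and l(1)sc. sc, a proneural factor, was at 29.0, 28.7 and 27.7 CPM in the double mutant, against 0.641, 0.606 and 0.420 CPM in Canton-S (log2 change 4.25). ac had 5.64, 2.98 and 3.14 CPM in the double mutant and no read in Canton-S. y, the pigmentation gene at the end of the complex, was at 17.3, 24.0 and 26.0 CPM in the double mutant, against 3.08, 3.51 and 4.41 CPM in Canton-S (log2 change 2.32). The last of the runs named by rule have 6 genes each and lie on 3L (22691674 to 22713660, CG14454 to CG11370, median 1.69) and 2R (7153738 to 7185298). The stretch on 2R holds the serpin genes nec, a brake on Toll signalling, and Spn43Ad, with Spn43Ad at 14.2, 13.2 and 17.1 CPM in the double mutant, against 1.47, 1.67 and 1.21 CPM in Canton-S (log2 change 2.69).

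**Figure D5:**
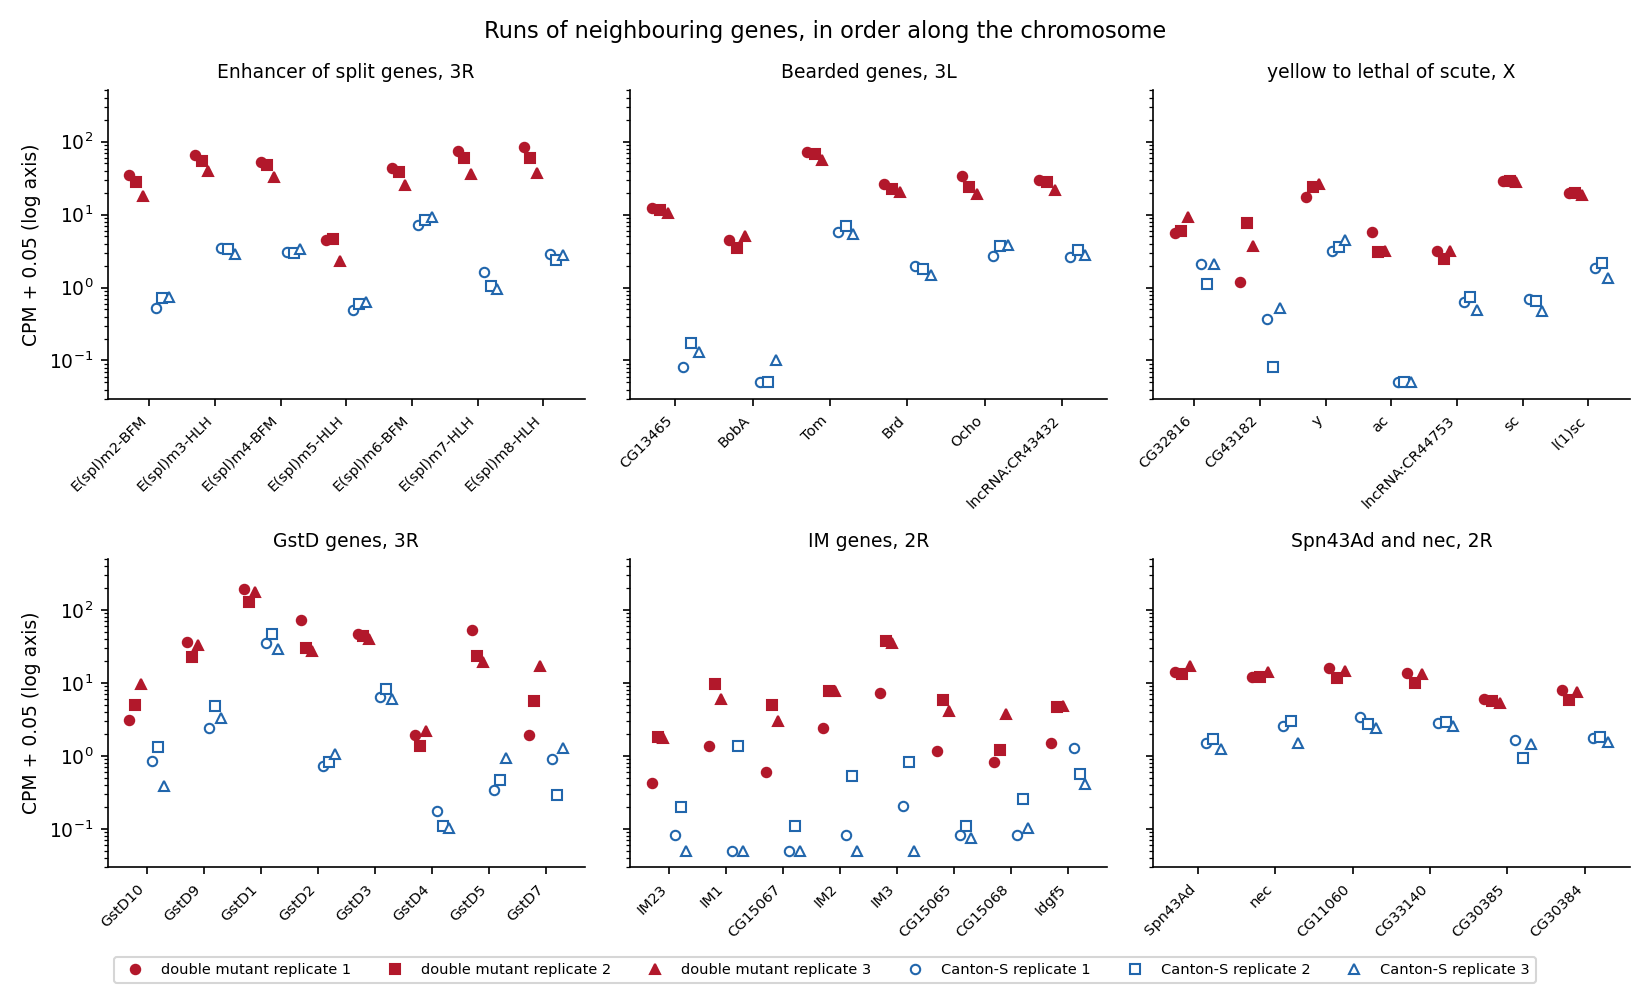
CPM + 0.05 of each gene in 6 runs of neighbours that all rose, on a log axis, with 1 point per library and double mutant libraries left of Canton-S libraries. In the Enhancer of split run every double mutant point lies above every Canton-S point, and replicate 1 is the highest double mutant library for E(spl)m2-BFM and E(spl)m8-HLH (34.4 and 83.9 CPM).

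The neighbourhoods of the deleted genes were looked at for the same reason. Within 100 kb of elav, 25 other genes were tested, of which 13 rose and 1 fell (median 0.70, and 0.42 without double mutant replicate 3). They include CG32816 and l(1)sc, which are members of the achaete-scute run, so the 2 counts share genes. Also among them was ase, which lies within the span of that run but is not a member. It was at 229, 210 and 182 CPM in the double mutant, against 15.5, 17.0 and 15.1 CPM in Canton-S. Within 100 kb of fne, 13 other genes were tested, of which 2 rose and 5 fell (median -0.23). The deepest fall was hec, a G protein-coupled receptor gene that begins 18 bases from the end of fne on the opposite strand. hec was at 3.46, 5.02 and 3.05 CPM in the double mutant, against 27.4, 28.7 and 28.4 CPM in Canton-S (log2 change -2.61, SE 0.16, adjusted p = 3e-05), and at 22.3 and 19.9 CPM in the single mutant. Use of strand in the counting is not given in the sources used here, so reads of fne beyond its annotated end and reads of hec cannot be told apart.

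A few genes were all but silent in Canton-S. Of the 17807 genes considered, 4 had at least 5 CPM in each double mutant library and at most 3 reads in each Canton-S library, and none the other way round. lncRNA:CR45900 was at 19.0, 14.9 and 13.6 CPM in the double mutant, against 0, 0.0303 and 0 CPM in Canton-S. lncRNA:CR44953 was at 13.3, 10.8 and 8.80 CPM in the double mutant, against 0.0641, 0.0606 and 0.0526 CPM in Canton-S. CG34105 was at 17.4, 80.3 and 17.9 CPM in the double mutant, against 0.0320, 0 and 0 CPM in Canton-S, and CG3640 at 5.02, 6.63 and 6.16 CPM against 0.0320, 0.0303 and 0.0788 CPM. No fold is given for these genes, since Canton-S was at the floor. The absence of genes the other way round depended on double mutant replicate 2, the highest in most of the deepest falls. Setd3 was at 32.6, 35.2 and 34.2 CPM in Canton-S and at 0.0935, 1.15 and 0.0280 CPM in the double mutant. It missed the rule through replicate 2 alone.

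Position and size of genes were compared as well. On chromosome 4, the small heterochromatic chromosome, 24 of 97 tested genes rose and 44 fell (45.4%, median -0.21, and 41 falls with a median of -0.17 without replicate 3). On the other arms between 25.5% and 30.5% of genes fell. Of 295 protein-coding genes that span over 50 kb, 136 fell (46.1%) and 82 rose (median -0.17), whereas of 3367 genes under 2 kb 25.0% fell. Of 1847 genes with a mean under 5 CPM 40.6% rose and 12.5% fell, and other scalings were not tried for this class. When only genes with a mean of at least 5 CPM were fitted, 2611 rose and 2584 fell. The neuron markers fell over the same comparison, and their part in the counts by size and position was not tested.

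Double mutant replicate 3 was examined on its own. In it 443 genes were at least 2-fold above all other 5 libraries and 139 at least 4-fold, against 22 genes at the 2-fold mark for double mutant replicate 2 and at most 10 for any of the other 4. The 139 genes summed to 9448 CPM in replicate 3 and to at most 1043 CPM in any other library. Of these 139, 8 are on the gut list, 2 on that of the Malpighian tubule, none on the muscle list and 129 on no marker list. The highest ratios were those of gut proteases such as Jon25Biii, at 1.78, 0.976 and 282 CPM in double mutant replicates 1 to 3, against 0.352, 0.545 and 0.105 CPM in Canton-S. Only 18 of the 139 passed the test with all libraries, and 39 did without replicate 3.

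Tissue markers passed the test in part with and in part without that library. Of 51 gut markers 31 were tested, and those near 0 in Canton-S only if they reached the filter in the double mutant. Of the 31, 12 rose (median 1.82), and 9 rose without replicate 3 (median 0.86), 6 without double mutant replicate 2 and 20 without replicate 1. Without Canton-S replicates 1, 2 and 3 the count was 7, 7 and 6. Of 24 muscle markers 19 rose (median 2.04), and 19 rose without replicate 3 (median 1.39), but 11 without replicate 2 and 10 to 12 without any 1 Canton-S library. Replicate 3 was the highest double mutant library for all 12 gut rises and for 18 of the 19 muscle rises.

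Of 9 tracheal markers 6 rose (median 1.65), and 3 rose without Canton-S replicate 1 or 3. Of 14 hemocyte markers 7 rose and 2 fell, and the sums were 782, 573 and 1026 CPM in the double mutant, against 395, 404 and 572 CPM in Canton-S, without overlap, although the lowest double mutant sum and the highest Canton-S sum nearly met. Of 7 germline markers 5 rose, led by vas, the helicase of germ cells, at 31.2, 29.5 and 29.7 CPM in the double mutant, against 1.03, 0.878 and 0.736 CPM in Canton-S (log2 change 4.05). vas did not follow the gut and muscle sums. Of 9 ring gland markers none rose and 6 fell (median -0.79), and no fat body marker of 6 passed the test.

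Across all 3493 genes that rose, replicate 3 was the highest double mutant library in 48.7%, replicate 1 in 1315 genes and replicate 2 in 477. The share differed between lists. Replicate 3 was the highest for 10 of the 46 RpL rises, 3 of the 33 RpS rises, 4 of the 20 translation factor rises, 2 of the 11 autophagy rises and 1 of the 11 neuroblast rises, and for all rises of fatty acid oxidation, sugar metabolism, the pentose phosphate pathway and Spn genes. Without replicate 3, 94.7% of all rises and 95.9% of all falls still passed the test. The part of gut, muscle or other tissue in the rises highest in replicate 3 was not tested.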

How the data were processed

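The authors deposited CPM values per gene for 8 libraries. HISAT2, an aligner, and the dm6 build are named, per the submitters' processing notes, and libraries were made with the TruSeq Stranded Total RNA kit from CNS total RNA, per the labels' protocols. Not given in the sources used here are the aligner's version, the read counter, its annotation and whether it used strand. Low values gave whole reads for 100% of values (tolerance 0.01), so reads per library were recovered, 31216373 to 38056274 in the 6 libraries compared. Of 17807 genes, 17710 were matched by ID to the Ensembl annotation BDGP6.54, the source of coordinates and biotypes, and 97 were not. Missing symbols of 56 genes were filled from the ID.

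The test was limma 3.58.1 (R 4.3.3), with a trend of variance on mean, on log2(CPM + 1) of the 3 double mutant and 3 Canton-S libraries, with Benjamini-Hochberg adjustment over the 10384 genes that reached 1 CPM in 2 or more libraries and a two-sided threshold of 0.05. Fold changes on the log2(CPM + 1) scale understate the change of low genes. edgeR 4.0.16 (quasi-likelihood) and DESeq2 1.42.0 on the recovered reads, other pseudocounts, filters and scalings, the replicate number as a block, all 8 libraries, and each library left out in turn were alternatives. This test was tried on simulated data first.

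The members and the lists, 36 of programs and 13 of markers with 1094 entries (17 unmatched, 19 matched by synonym), were chosen with earlier results of these data known. Lists are described by counts and medians, with no test of the list. A list of Y-linked genes had 1 tested member and is not described. Named genes are the targets, the 12 largest rises and falls that held without double mutant replicate 3, the 10 largest gains and losses of CPM, up to 4 members with the smallest p per list, genes on in every library of 1 genotype and at 3 reads or fewer in the other, the 6 longest runs of neighbours (shorter spans first among ties), leading families, the genes highest in replicate 3, neighbours of elav and fne, and leading markers. Not all are printed. Fbp1, Lsp1beta, dpp, wit, hh, Dif, cact, Socs36E, RpS19b, RpS5b, mRpS30, mRpL17, GstE1, alpha-Est10, vas and the Bearded-family run were added after their values were seen.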

Additional observations from a re-analysis of the deposited data

Results flagged for a closer look

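The 2 libraries of the single mutant take no part in the comparison, and they held reads of all 4 genes that were nearly silent in Canton-S. lncRNA:CR45900 had 17.2 CPM in the lower of the 2 single mutant libraries, within the range of the double mutant libraries. CG3640 had 2.46 CPM in the lower single mutant library, CG34105 had 1.27 CPM and lncRNA:CR44953 had 0.329 CPM, all below the lowest double mutant library and above 3 reads. These differences from Canton-S were not tested.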

How the results depend on the processing

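The count of genes called, 6383, lay between 5195 (a filter at a mean of 5 CPM) and 6808 (no filter) under the filters, pseudocounts and scalings tried, and was 6542 by edgeR, 6744 by DESeq2 and 6256 with all 8 libraries in the fit. Leaving out each library in turn gave 5331 (without double mutant replicate 2) to 6520 (without double mutant replicate 3). Genes changed at least 2-fold numbered 2316, and 1403 with a pseudocount of 5 CPM, where the change of low genes is understated by construction. Of the genes called, 54.7% were higher, and 48.6% after TMM scaling, 50.3% after median-ratio scaling and 41.8% after quantile normalization. The list medians of DNA repair (0.24), ER translocation (0.07) and eye pigment (0.00) were -0.10, -0.03 and -0.04 after quantile normalization. Same-numbered libraries of the genotypes had correlations of -0.37, -0.13 and -0.32 in their deviations from the group means, so the numbers were not taken to pair them. A replicate block gave 5401 calls, and lost Mhc (adjusted p = 0.0542), Fst (0.0545), Idgf5 (0.0558) and RpS19b (0.0902). Of 192 genes that are named in the text or are among the largest changes, and that passed the test, none changed direction under any alternative and 183 kept their call under every one. The other 9 were Mhc, Fst, Rbp9, RpS19b, IM1, IM23, Idgf5, CG15067 and CG15068, under settings given here and beside their values. Mhc was also lost with no filter (adjusted p = 0.0558), CG15068 with a pseudocount of 5 CPM (0.0570), and IM23, CG15068 and Idgf5 with quantile normalization (0.0647, 0.0685 and 0.0594). Depth limits genes near 3 reads, such as upd3 in Canton-S.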
